A study of Mus musculus with 47 samples.

Results

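Potassium channels let potassium ions cross the membrane along their gradient, and thereby set the resting potential of retinal neurons and end their depolarisation. Voltage-gated Kv channels open on depolarisation, inward rectifiers (Kir) and 2-pore-domain (K2P) channels hold the resting potential, and calcium-activated channels couple calcium entry to repolarisation. Silent Kv subunits such as Kv8.2 (Kcnv2), found in photoreceptors, form no channel alone but change the channels they join, and loss of KCNV2 in humans causes a cone dystrophy with a characteristically enlarged rod response. The 56 genes described here are protein-coding genes whose symbol begins with Kcn and that reached 0.5 RPKM (read counts scaled to transcript length and library size) in at least 12 of the 47 libraries; 92 genes with such a symbol were examined, and 15321 genes of all kinds met the same minimum.

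The libraries were made from whole right retinas of C57BL/6 mice, aged (20 months) or young (6 weeks), kept in a 12 h light and 12 h dark cycle and taken at Zeitgeber time (ZT, hours after lights on) 2, 6, 10, 14, 18 and 22. The protocol gives 4 mice for each age and time, and each library was taken as 1 mouse. Each age and time had 4 libraries, except aged ZT18 with 3, which made 23 aged and 24 young libraries. The labels name no transgene and no drug, and retinas were dissected under dim red light. In such bulk samples, fewer cells of a type and less RNA per cell cannot be told apart.

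The steps between low RPKM values implied totals of 32036658 to 55512066 counted reads per library, with medians of 36967828 in aged and 37151539 in young retinas. Markers of rods, the most numerous retinal neuron, were abundant in all libraries, with a summed level of 13272 to 22514 RPKM over 7 markers in aged and 13537 to 21177 RPKM in young retinas. Aged ZT6 replicate 3 and young ZT10 replicate 4 stood apart from the other libraries, and the age differences, rhythms and class sums below are also given without them. The levels of single genes are over all libraries.

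Among the genes that the results turn on are 4 pore-forming or pore-modifying subunits whose coding sequence carries the potassium channel signature, the short run that forms the ion-selective part of the pore. They are shown because they come from different channel families and include genes whose level changed with time of day. The capitals mark the 5 codons that match the signature, within 45 bases of coding sequence read from GENCODE M21 transcripts, 5′ to 3′.
Kcnj14: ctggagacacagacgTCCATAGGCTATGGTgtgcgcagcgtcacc
Kcnv2: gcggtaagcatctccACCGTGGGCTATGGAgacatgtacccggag
Kcna5: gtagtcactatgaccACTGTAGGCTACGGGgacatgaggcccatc
Kcnn1: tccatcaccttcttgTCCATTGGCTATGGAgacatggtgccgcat
The stretch of Kcnv2 shared 29 of 45 bases with that of Kcnn1 and 27 of 45 with that of Kcna5, while Kcnj14 shared 17 of 45 with Kcnv2. Within the capitals, Kcnj14 and Kcnn1 were the most alike pair of the 6 pairs compared, at 13 of 15 bases.

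A few of the 56 genes carried most of their summed RNA level. Kcnj14, which encodes the inward rectifier Kir2.4, had the highest mean level at 415 ± 89.8 RPKM in aged and 402 ± 61.6 RPKM in young retinas (SD, n = 23 aged and 24 young libraries here and for the levels that follow). Kcnv2 had 140 ± 22.8 RPKM in aged and 136 ± 10.7 RPKM in young retinas. Kcnj14 and Kcnv2 together made up 61.4% of the summed RPKM of the 56 genes. RPKM is scaled to transcript length, so these levels can be compared between genes.

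Below them stood 2 auxiliary subunits. Kcnab2 (Kvβ2, a cytoplasmic β subunit) had 77.2 ± 9.00 RPKM in aged and 78.1 ± 7.37 RPKM in young retinas. Kcne2 (MiRP1, a single-span β subunit) had 29.1 ± 7.76 RPKM in aged and 32.0 ± 5.82 RPKM in young retinas. The 4 highest genes held 73.5% of the summed RPKM. Their order was the same in both ages and in nearly every library: Kcnj14 was above Kcnv2 in 46 of 47 libraries, and Kcnv2 above Kcnab2 and Kcnab2 above Kcne2 in 47 of 47.

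The next genes lay close together. Kcna5 (Kv1.5) had 20.3 ± 5.30 RPKM in aged and 23.5 ± 6.12 RPKM in young retinas. Kcnj9 (Kir3.3, a G-protein-gated rectifier) had 14.3 ± 4.27 RPKM in aged and 16.4 ± 4.19 RPKM in young retinas. Kcnh2 (ERG1) had 14.1 ± 4.46 RPKM in aged and 16.1 ± 4.51 RPKM in young retinas. Kcnj9 and Kcnh2 could not be ordered, since Kcnj9 was the higher in 29 of 47 libraries.

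Kcnk1 (TWIK-1, a K2P channel) had 10.98 ± 2.74 RPKM in aged and 11.3 ± 2.71 RPKM in young retinas. Kcnc1 (Kv3.1, a fast delayed rectifier of rapidly firing neurons) had 10.4 ± 4.58 RPKM in aged and 11.8 ± 4.51 RPKM in young retinas. Kcnk1 was above Kcnc1 in 26 of 47 libraries, so these neighbours did not differ beyond their spread. Kcnab3 (Kvβ3, a cytoplasmic β subunit) had 10.4 ± 4.09 RPKM in aged and 10.9 ± 3.28 RPKM in young retinas. The remaining 46 genes had means from 0.465 to 10.2 RPKM over all libraries.

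**Figure D1:**
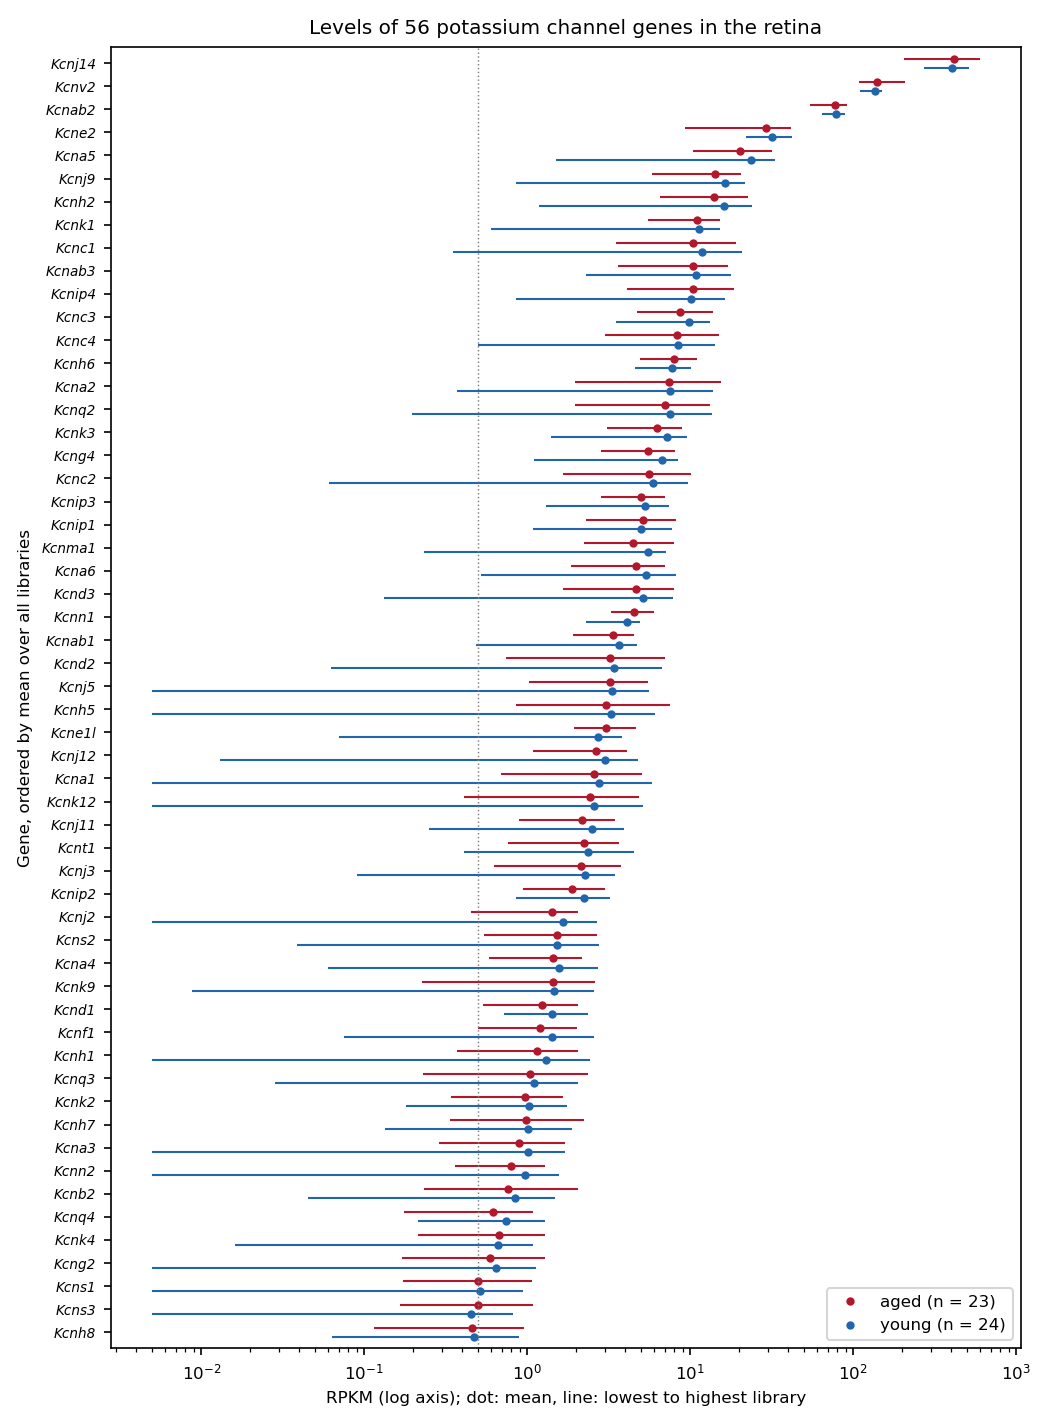
Level of each of the 56 genes in RPKM on a log axis, with dots for the mean and lines from the lowest to the highest library, aged (n = 23) above young (n = 24) for each gene; the dotted line marks 0.5 RPKM and values under 0.005 RPKM are drawn there. The 3 highest genes stand clear of the rest in both ages, and the long lines of young retinas to the left end in young ZT10 replicate 4 for most genes.

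By channel class, pore-forming Kv subunits were represented by 14 of 16 genes examined and summed to 80.2 ± 25.4 RPKM in aged and 88.4 ± 25.6 RPKM in young retinas, with Kcna5 the highest. Their sum without the 2 libraries was 80.0 ± 26.0 RPKM in aged and 91.9 ± 19.4 RPKM in young retinas. Inward rectifiers were represented by 7 of 14 and summed to 440 ± 86.5 RPKM in aged and 431 ± 57.4 RPKM in young retinas, and without the 2 libraries to 450 ± 73.7 RPKM in aged and 431 ± 58.6 RPKM in young retinas. Silent and modifier subunits of Kv channels numbered 7 of 10 and auxiliary subunits 9 of 12. The KCNH (EAG, ERG and ELK) class had 6 of 8, the M-type KCNQ class 3 of 5, K2P channels 6 of 14, and calcium- or sodium-activated channels 4 of 12. The KCNQ class had the lowest sum, with 8.68 ± 4.15 RPKM in aged and 9.33 ± 3.95 RPKM in young retinas (8.53 ± 4.18 RPKM and 9.72 ± 3.55 RPKM without the 2 libraries).

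At the minimum, Kcns3 (Kv9.3, a silent subunit) reached 0.5 RPKM in 19 libraries, with 0.496 ± 0.227 RPKM in aged and 0.449 ± 0.185 RPKM in young retinas. Kcns1 and Kcnh8 reached it in 21 each. Just outside, Kcnj6 reached it in 10 libraries, and Kcnj13 and Kcnmb2 in 9 each.

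The genes did not vary independently between libraries. In young ZT10 replicate 4, 50 of the 56 genes were below 50% of the mean of the other 3 young ZT10 libraries, and 36 were below 10% of it. The shares of all tested genes below these limits were not counted. In that library the median deviation of log2(RPKM + 0.5) from a gene's median over all libraries was -1.88 for the 56 genes. Over all tested genes it was -0.28. Kcna2 (Kv1.2, an axonal delayed rectifier) stood at 0.372 RPKM there, against 9.92, 8.30 and 9.35 RPKM in the other 3. Kcnk1 stood at 0.596 RPKM, against 12.0, 12.4 and 9.81 RPKM. Only 20 of the 56 genes reached 0.5 RPKM in that library, against 42 to 56 in the other 46.

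Of the 6 exceptions in young ZT10 replicate 4, 4 were the 4 most abundant genes. Kcnj14 stood at 124%, Kcnab2 at 111%, Kcnv2 at 96.8% and Kcne2 at 78.6% of the mean of the other 3. Kcnn1 (63.3%) and Kcnd1 (57.2%), which rank 25 and 42 by mean level, were the only others above 50%. The next genes in abundance were low, with Kcna5 at 6.17%, Kcnj9 at 4.48% and Kcnh2 at 6.29%. These 6 genes were chosen by their values in this library, and no test was made on them.

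Cell type markers in young ZT10 replicate 4 also separated. The median marker stood at 89.1% of the other 3 libraries for 7 rod genes and 85.2% for 7 cone genes. It stood at 15.3% for 7 bipolar, 8.29% for 7 Müller glia, 5.48% for 8 amacrine and 4.40% for 8 ganglion cell genes. The lowest medians were those of 7 microglia genes (1.96%) and 6 vessel and pericyte genes (1.69%). Other markers were several-fold higher than in the other 3 libraries, at a median of 560% for 5 blood, 487% for 14 lens and 260% for 2 muscle genes. The summed ganglion cell markers were 63.6 RPKM in that library, against 299 to 676 RPKM in the other 23 young libraries, and no ganglion cell marker was at 0. The part that the cell content of this library has in the low values was not tested.

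A smaller split lay within aged ZT2. Replicates 3 and 4 were both lower than replicates 1 and 2 for 52 of the 56 genes, and both higher for 3: Kcnj14, Kcnv2 and Kcne2. The share of all tested genes that split in this way was not counted. Kcna2 was 14.7 and 8.14 RPKM in aged ZT2 replicates 1 and 2, and 1.99 and 2.05 RPKM in replicates 3 and 4. Summed ganglion cell markers were 698 and 473 RPKM in replicates 1 and 2, and 201 and 216 RPKM in replicates 3 and 4. Summed rod markers were 13811 and 17368 RPKM in replicates 1 and 2, and 22442 and 22514 RPKM in replicates 3 and 4. Bipolar cell markers did not split in this way, with 116 and 115 RPKM in replicates 1 and 2, and 117 and 89.1 RPKM in replicates 3 and 4. Lens markers summed to 44.0 and 109 RPKM in replicates 1 and 2, and 2104 and 206 RPKM in replicates 3 and 4.

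Other aged libraries were low for most of the genes too. Below the gene's own median over all libraries were 54 of the 56 genes in aged ZT10 replicate 3, 50 in aged ZT18 replicate 1 and 52 in aged ZT22 replicate 3, as well as 52 in each of aged ZT2 replicates 3 and 4. The share of all tested genes was not counted. In the same order, the median deviation of log2(RPKM + 0.5) was -0.48, -0.66, -0.64, -0.78 and -0.91 for the 56 genes. It was -0.01, -0.10, -0.17, -0.13 and -0.14 over all tested genes. Amacrine cell markers summed to 54.6, 40.0, 46.1, 37.5 and 34.1 RPKM in these 5 aged libraries in that order, to 6.17 RPKM in young ZT10 replicate 4, and to at least 62.0 RPKM in each of the other 41. The part of cell content in these low values was not tested.

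Aged ZT6 replicate 3 differed in another way. Its highest genes went apart, with Kcnj14 at 206 RPKM and Kcne2 at 9.24 RPKM, the lowest aged values of both, and Kcnv2 at 209 RPKM, the highest of all libraries. The other aged ZT6 libraries had 316, 317 and 350 RPKM of Kcnj14 and 121, 109 and 139 RPKM of Kcnv2.

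**Figure D2:**
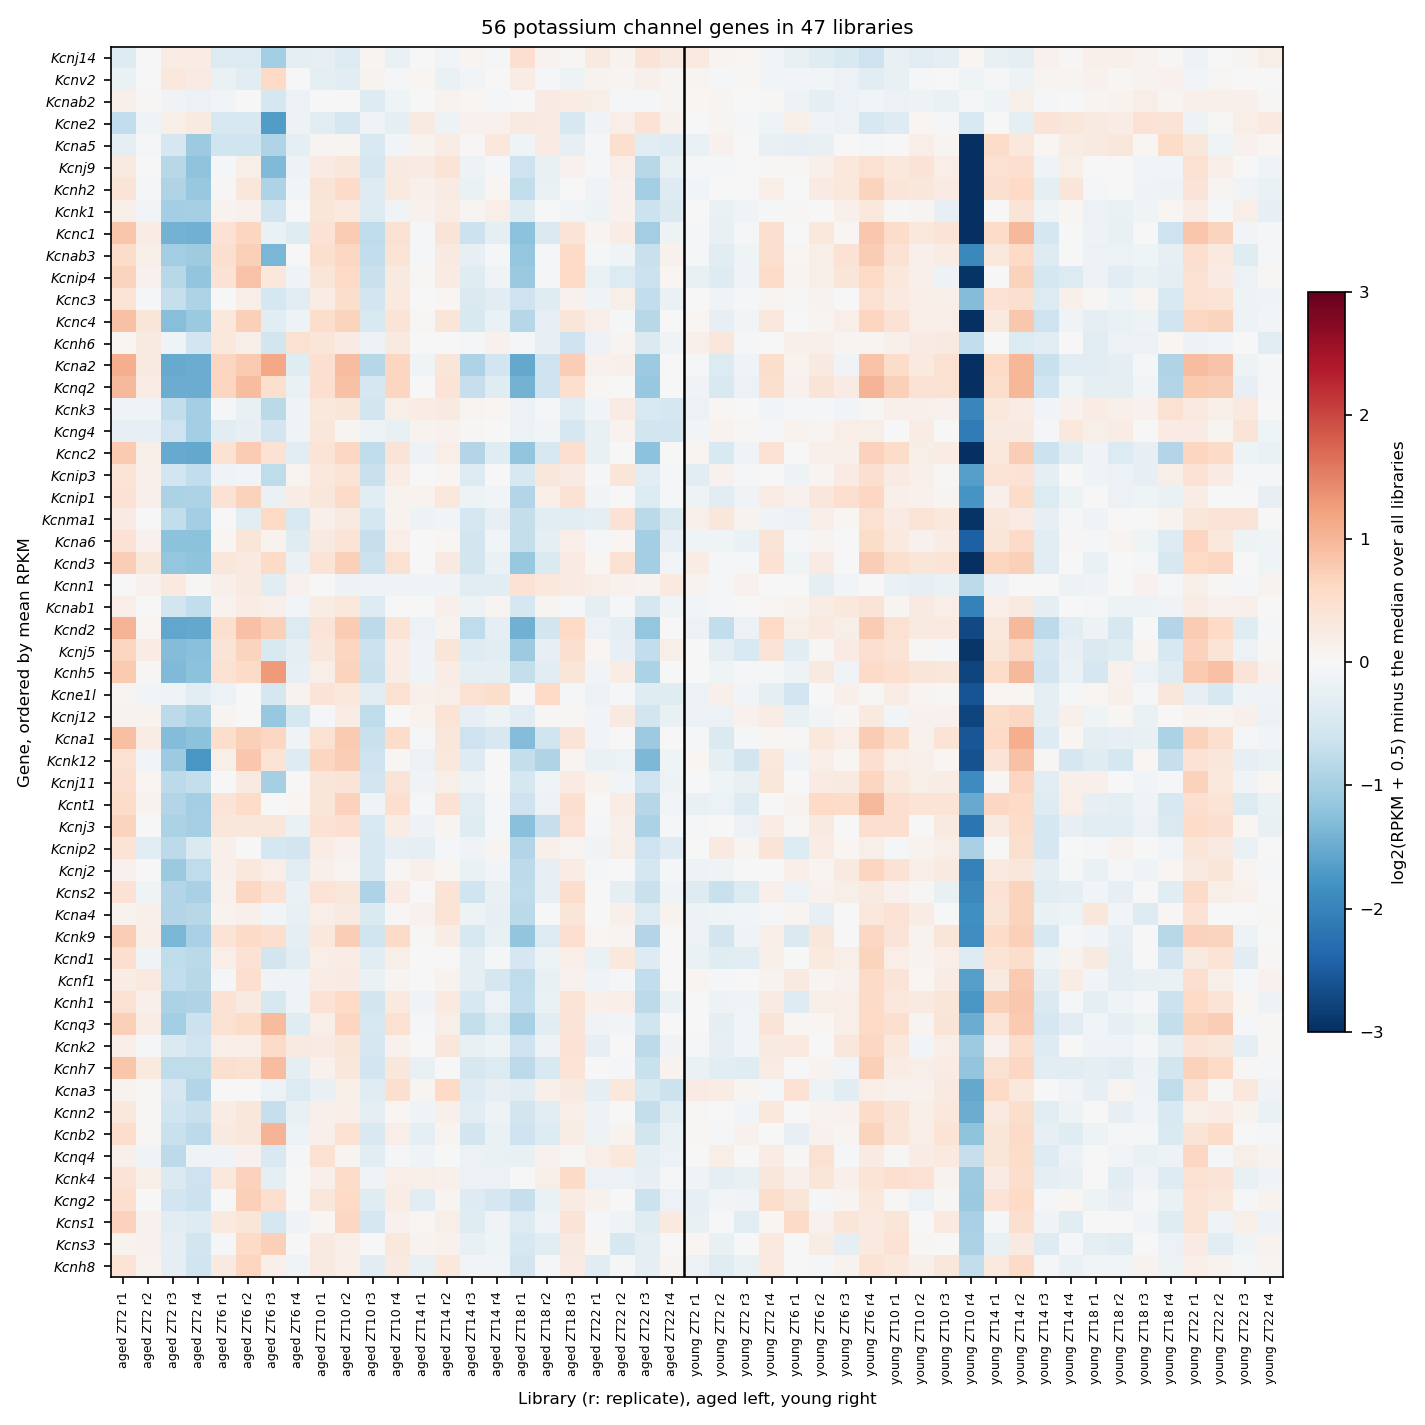
Level of the 56 genes in 47 libraries, as log2(RPKM + 0.5) minus the gene's median over all libraries, with colours limited to 3 in each direction; aged libraries are left and young libraries right of the black line, in order of time. The column of young ZT10 replicate 4 is low for all but the 4 top rows and a few others, and aged ZT2 replicates 3 and 4 are low in the same rows.

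The first comparison asked whether the level of these genes differed with age over all times. None of the 56 genes did at an adjusted p under 0.05 (limma on log2(RPKM + 0.5) with time as a factor, Benjamini-Hochberg over 15321 genes), where 2.41% of all tested genes were called higher and 1.83% lower in aged retinas, 4.24% in all. With an unadjusted p under 0.05 there were 3 genes. The share of all genes at that threshold is not given here, so this count says nothing about the 56 genes as a set. In limma voom on recovered reads 0 of the 56 were called too, where 2.28% of all genes were called higher and 1.74% lower. No gene differed by more than 1.5-fold, a change that 0.490% of all genes passed together with the adjusted p. The largest difference on the log2 scale was 0.246 in size. With all libraries, the 95% limits of the difference lay within 1.5-fold in both directions for 55 of the 56 genes. These limits were not taken without the 2 libraries that stand apart, where Kcnma1 had a log2 difference of -0.42. The count of 55 therefore holds for the fit of all libraries only. These folds are on the scale of RPKM + 0.5, which understates them for genes with a level near 0.5 RPKM.

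Of the 56 genes, 46 had a lower mean log2 level in aged retinas, which is 82.1%, where 58.4% of all tested genes did. Their median log2 difference was -0.10, against -0.02 over all tested genes. With the RPKM columns rescaled by median ratios or by quantiles, which moved the median of all genes by 0.015 and 0.0175, 44 and 46 were lower. In the same fits 52% and 51.9% of all tested genes were lower. Since many of these genes fell and rose together between libraries, their directions are not separate observations.

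The smallest adjusted p belonged to Kcnn1 (SK1, a small-conductance calcium-activated channel). Its level was 3.25, 4.61 and 5.97 RPKM as the lowest, median and highest of the aged libraries, against 2.29, 4.20 and 4.93 RPKM in the young. The log2 difference was 0.13 ± 0.05 (SE; adjusted p = 0.147 in limma). Kcng4 (Kv6.4, a silent subunit) was 2.84, 5.39 and 8.11 RPKM in aged libraries, against 1.10, 6.83 and 8.39 RPKM in young. Its log2 difference was -0.25 ± 0.11 (SE; adjusted p = 0.273 in limma). The third gene with an unadjusted p under 0.05 was Kcnip2 (KChIP2, a partner of Kv4 channels), at 1.88 ± 0.560 RPKM in aged and 2.23 ± 0.520 RPKM in young retinas, with an adjusted p of 0.295 in limma. In all 3 the ages overlapped widely.

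The count changed when both libraries that stand apart were left out. Kcnn1 was then called higher and 7 genes lower in aged retinas, which is 1.79% and 12.5% of the 56 genes, against 7.24% and 9.29% of all tested genes called higher and lower in the same fit. Of the 56, 51 had a lower mean log2 level, with a median log2 difference of -0.18, where 59.8% of all genes were lower with a median of -0.03. The library that decided this was young ZT10 replicate 4: without it alone, 8 genes were called lower, and without aged ZT6 replicate 3 alone, 0 were. The shares of all genes called in these 2 fits were not counted, so the 8 genes cannot be set against them.

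The 5 low aged libraries remained in the fit without the 2 libraries that stand apart. When they were left out as well, by the rule that summed amacrine cell markers were under 60 RPKM, an alternative chosen after seeing the data, 17 aged and 23 young libraries were kept. Then 28 of the 56 genes had a lower mean log2 level in aged retinas, where 46.4% of all genes did, and the median log2 difference was 0.0043, against 0.0075 over all genes. Most of the 56 genes had already been seen to be low in these 5 aged libraries. The loss of the lower level in aged retinas therefore follows in part from leaving them out. This fit cannot decide whether the 56 genes differ with age. In limma, no gene was called higher and 2 were called lower, 0% and 3.57% of the 56, against 6.94% and 4.97% of all genes. The 2 were Kcng4, at -0.25 ± 0.06 (SE; adjusted p = 0.0017 in limma), and Kcnma1, at -0.27 ± 0.07 (SE; adjusted p = 0.00666 in limma).

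The 7 genes called lower without the 2 libraries came from 5 classes. Kcnma1 (BK, the large-conductance calcium-activated channel) had the largest log2 difference without the 2 libraries, -0.42 ± 0.09 (SE; adjusted p = 0.000563 in limma). It was 2.24, 4.13 and 7.92 RPKM as the lowest, median and highest of all aged libraries, against 0.233, 5.60 and 7.13 RPKM in young. The lowest young value was that of young ZT10 replicate 4 and the highest aged value that of aged ZT6 replicate 3. With all libraries its log2 difference was -0.24 ± 0.16 (SE; adjusted p = 0.522 in limma).

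Kcng4 had a log2 difference of -0.33 ± 0.06 without the 2 libraries (SE; adjusted p = 0.000193 in limma), and Kcna5 one of -0.27 ± 0.07 (SE; adjusted p = 0.00659 in limma). The others were Kcnk3 (TASK-1, an acid-sensitive K2P channel) at -0.24, Kcnj2 (Kir2.1) at -0.26, Kcnj9 at -0.27 and Kcnf1 (Kv5.1, a silent subunit) at -0.26, with adjusted p-values of 0.0164, 0.0267, 0.0342 and 0.0434 in that order. Kcnn1 was at 0.12 ± 0.04 (SE; adjusted p = 0.0245 in limma). In the same libraries, 4 of 7 bipolar cell markers were called lower in aged retinas, and the 7 summed to 78.6 to 188 RPKM (median 124) in aged and 115 to 224 RPKM (median 152) in young retinas. Of 8 amacrine and 8 ganglion cell markers, 0 were called by limma in either fit, but without the 2 libraries 8 and 7 of them had a lower mean log2 level in aged retinas, with median log2 differences of -0.18 and -0.15, beside -0.18 for the 56 genes. The amacrine markers summed to 34.1 to 118 RPKM in aged and 62.0 to 116.5 RPKM in young retinas, with none at 0. In the same fit 2 of 3 tested horizontal cell markers were called lower, and 3 of 7 microglia, 4 of 5 blood and 4 of 11 RPE (retinal pigment epithelium) markers higher in aged retinas. The fit with ganglion and amacrine cell markers as covariates called 2 genes higher and 9 lower (3.57% and 16.1%, against 4.93% and 5.01% of all genes). The part of cell content in these differences was not tested beyond that fit. The fit without the low libraries cannot decide it, since it left out aged libraries already seen to be low for most of these genes.

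**Figure D3:**
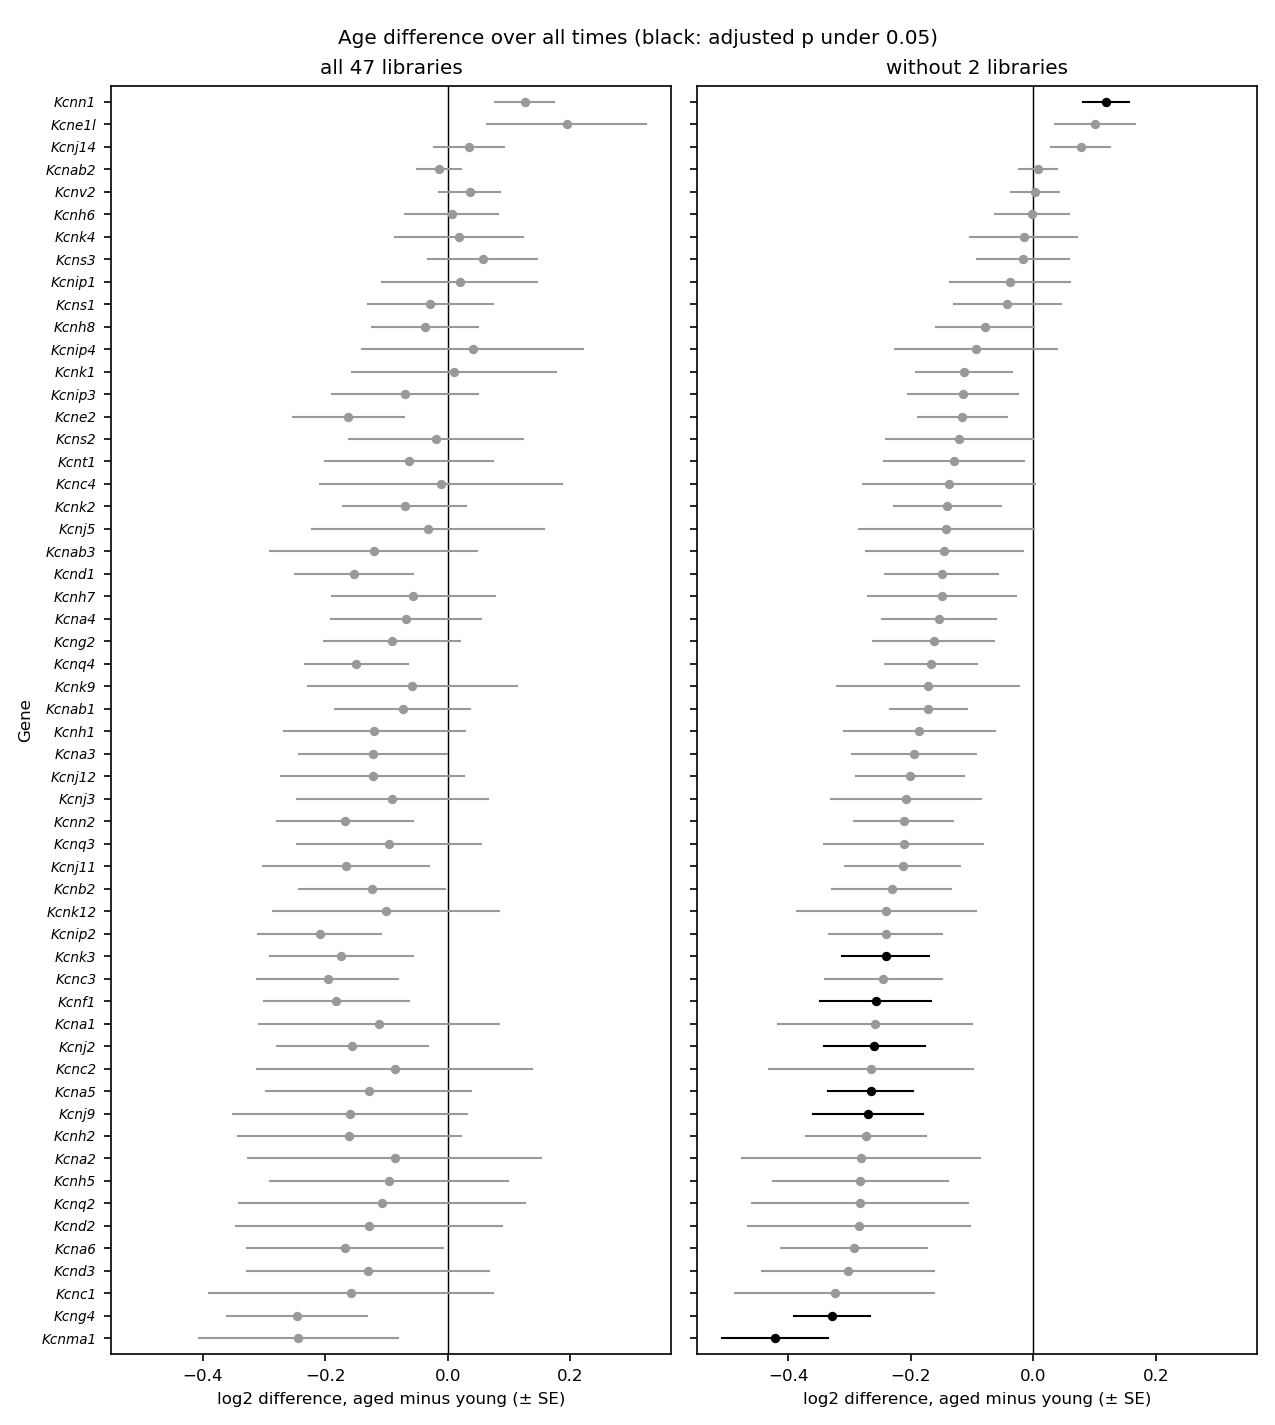
Log2 difference of each of the 56 genes, aged minus young over all times, with its standard error, for all 47 libraries (left) and without the 2 libraries that stand apart (right), in limma on log2(RPKM + 0.5). No gene is black, that is past an adjusted p of 0.05, on the left; Kcnn1 and 7 genes at negative values are black on the right, where the standard errors are shorter.

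Other genes of retinal interest were not called in either fit. Kcnh2 came nearest, at a log2 difference of -0.27 ± 0.10 (SE) without the 2 libraries. Kcnc1 was at -0.16 ± 0.23 and Kcnc2 (Kv3.2) at -0.09 ± 0.22 (SE) with all libraries. Kcnc2 levels were 5.62 ± 2.66 RPKM in aged and 5.94 ± 2.31 RPKM in young retinas. Kcnip3 (KChIP3, also known as the transcriptional repressor DREAM) had 5.02 ± 1.35 RPKM in aged and 5.31 ± 1.31 RPKM in young retinas. Kcnv2 was near 0 in both fits, at 0.04 ± 0.05 with all libraries and 0.00 ± 0.04 without the 2 (SE).

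At single times, limma called none of the 56 genes, where 0.144%, 3.12%, 0.496%, 0.248%, 0.255% and 0.170% of all genes were called in either direction at ZT2, 6, 10, 14, 18 and 22 in that order. At ZT10, 53 of the 56 genes had a higher mean log2 level in aged retinas with all libraries, and 13 without the 2 libraries. This reversal came with young ZT10 replicate 4. At ZT2, 51 genes were lower in aged retinas in both fits, and aged ZT2 contains the low replicates 3 and 4. The shares of all genes higher or lower at single times without a threshold were not counted, so these directions cannot be set against them. Without the 2 libraries, Kcnn1 was called at ZT18, where it was 5.97, 5.41 and 5.18 RPKM in aged and 3.95, 4.29, 4.69 and 4.18 RPKM in young retinas, with no overlap and a log2 difference of 0.33; 0.822% of all genes were called there.

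The age by time interaction, which asks whether the age difference itself changed over the day, was called for 0 of the 56 genes and for 0 of all 15321 genes in limma. At an unadjusted p under 0.05, 0 of the 56 genes passed, against 4.80% of all genes. The smallest p-values were 0.0606 for Kcnn1, 0.0766 for Kcng4 and 0.0770 for Kcng2 (Kv6.2), with adjusted p = 0.838 in limma for each.

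The next comparisons asked which genes followed a 24 h rhythm in each age, by a cosine fit of log2(RPKM + 0.5). In aged retinas 5 of the 56 genes were rhythmic at an adjusted p under 0.05 in limma, which is 8.93% against 14.4% of all tested genes. In young retinas 5 were rhythmic, also 8.93%, against 19.7% of all genes. The 2 rhythmic in both ages, 3.57% against 7.56% of all genes, were Kcnj14 and Kcnn1. These shares are below those of all genes.

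Kcnj14 had the largest rhythm called in both ages. It was 316, 317, 206 and 350 RPKM at ZT6 and 503, 448, 553 and 505 RPKM at ZT22 in aged retinas, against 360, 326, 304 and 273 RPKM at ZT6 and 378, 420, 441 and 474 RPKM at ZT22 in young retinas. Neither age had overlap between these times. Its log2 amplitude was 0.35 ± 0.07 in aged and 0.21 ± 0.05 in young retinas (SE; adjusted p = 0.00456 and 0.0142 in limma), a peak over trough of 1.63-fold and 1.34-fold. The fitted peaks were at ZT 19.5 ± 0.74 h in aged and 20.0 ± 0.93 h in young retinas (SE), in the dark phase. Without the 2 libraries the amplitudes were 0.29 ± 0.06 in aged and 0.24 ± 0.05 in young retinas. With quantile normalization the calls were lost in both ages (adjusted p = 0.0597 in aged and 0.0577 in young retinas in limma). The call in aged retinas was also lost with pigment epithelium and lens marker levels as covariates (adjusted p = 0.131 in limma).

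Kcnn1 had smaller swings and a later peak. Group means fell between 3.62 ± 0.354 RPKM at ZT14 and 5.52 ± 0.409 RPKM at ZT18 in aged retinas (SD, n = 4 and 3), and between 3.29 ± 0.668 RPKM at ZT10 and 4.54 ± 0.332 RPKM at ZT22 in young retinas (SD, n = 4 each). Its log2 amplitude was 0.19 ± 0.05 in aged and 0.18 ± 0.05 in young retinas, with peaks at ZT 22.6 ± 1.12 h and 22.3 ± 0.95 h (SE). Adjusted p-values in limma were 0.0481 in aged and 0.0162 in young retinas. The call in aged retinas was lost in 20 of 60 alternative settings, 16 of which leave out 1 aged library (adjusted p = 0.0509 to 0.0882 in limma), and the call in young retinas in 1 of 60. The amplitudes without the 2 libraries were 0.18 ± 0.05 in aged and 0.13 ± 0.03 in young retinas (SE), with both calls kept.

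Kcnv2 had a smaller amplitude. It was 121, 109, 209 and 139 RPKM at ZT6 and 162, 133 and 124 RPKM at ZT18 in aged retinas, against 131, 130, 123 and 110 RPKM at ZT6 and 151, 143, 149 and 150 RPKM at ZT18 in young retinas. The times did not overlap in young retinas and overlapped in aged retinas. In young retinas its log2 amplitude was 0.11 ± 0.03 (SE; adjusted p = 0.0297 in limma), with a peak at ZT 19.1 ± 1.04 h, and in aged retinas 0.12 ± 0.06 (SE; adjusted p = 0.347). The call in young retinas was lost in 8 of 60 alternative settings, 6 of which leave out 1 young library. With the 2 libraries left out, the amplitudes were 0.14 ± 0.05 in aged and 0.11 ± 0.03 in young retinas (SE; adjusted p = 0.0883 and 0.0162 in limma).

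**Figure D4:**
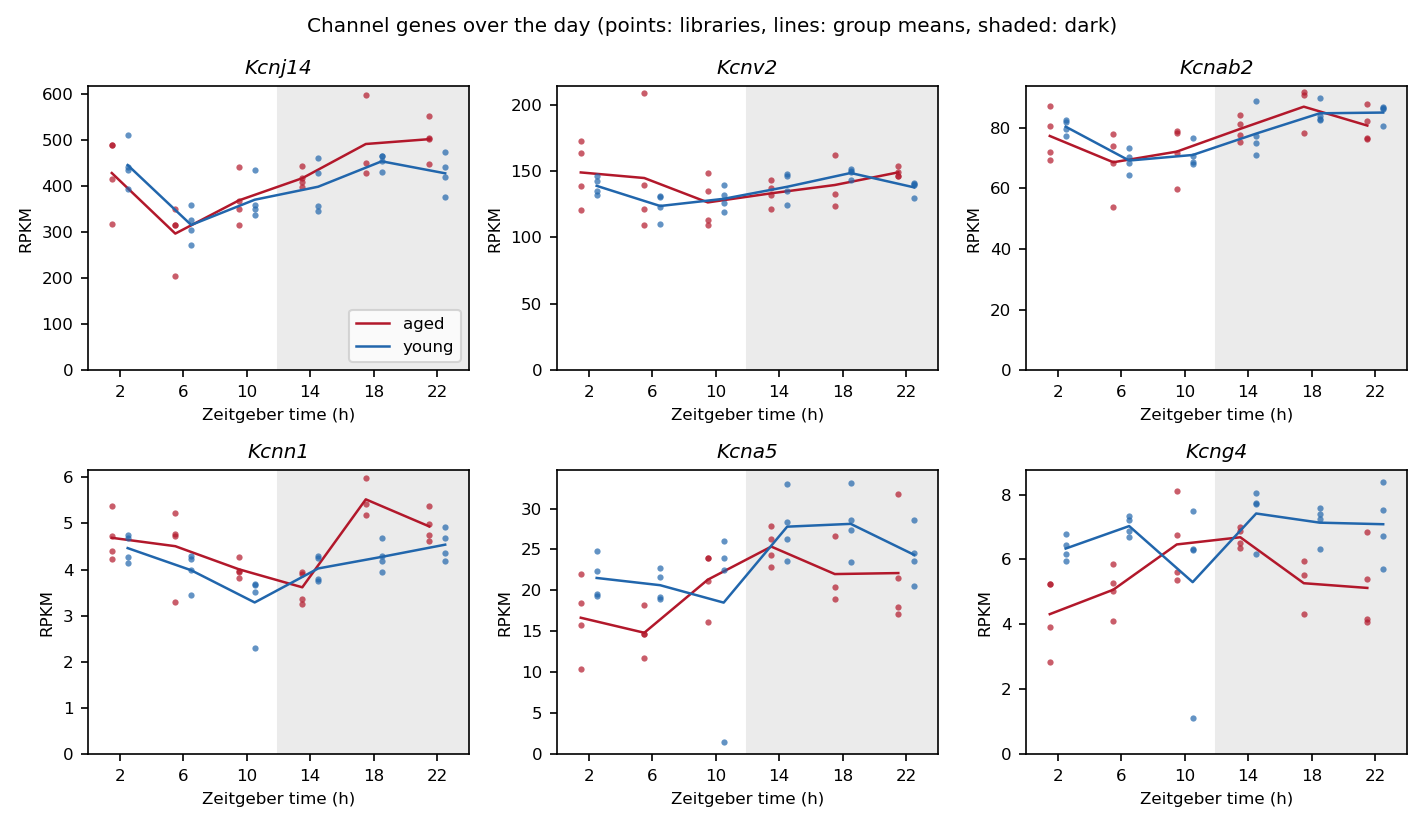
RPKM of 6 genes by Zeitgeber time in hours, with points for libraries and lines for group means, aged drawn left of young at each time and the dark phase shaded. Kcnj14 and Kcnab2 have their lowest means at ZT6 and their highest at ZT18 or ZT22 in both ages, Kcnv2 is flatter, and the low young points of Kcna5 and Kcng4 at ZT10 are young ZT10 replicate 4.

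In young retinas, the other rhythmic genes were the auxiliary subunits Kcnab2 and Kcne2. Kcnab2 was 70.4, 64.4, 68.6 and 73.5 RPKM at ZT6 and 83.04, 84.03, 89.7 and 82.4 RPKM at ZT18 in young retinas, with no overlap. It had a log2 amplitude of 0.16 ± 0.03 in young retinas (SE; adjusted p = 0.000397 in limma) and 0.15 ± 0.05 in aged retinas (SE; adjusted p = 0.0554). Kcne2 had one of 0.23 ± 0.06 in young retinas (SE; adjusted p = 0.0196 in limma) and 0.37 ± 0.11 in aged retinas (SE; adjusted p = 0.0659). Kcnab2 without the 2 libraries had amplitudes of 0.12 ± 0.04 in aged and 0.17 ± 0.02 in young retinas and Kcne2 of 0.26 ± 0.08 in aged and 0.21 ± 0.06 in young retinas (SE), with the same calls. In aged retinas, Kcnab2 was called in 8 of 60 alternative settings and Kcne2 in 3. Median-ratio scaling was among them for both genes (adjusted p = 0.000963 and 0.0466 in limma). The call of Kcne2 in young retinas was lost in 2 of 60. Both genes peaked between ZT 18.8 and ZT 20.2 in the 2 ages. All 5 genes rhythmic in young retinas are among the 6 that kept over 50% of their level in young ZT10 replicate 4, and the other 50 had at most 48.9% of it there.

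In aged retinas, the other rhythmic genes were Kcna5, Kcng4 and Kcne1l. Kcne1l encodes the KCNE5 subunit. Kcna5 averaged 14.8 ± 2.63 RPKM at ZT6 and 25.4 ± 2.19 RPKM at ZT14 (SD, n = 4 each), with no overlap. Its log2 amplitude was 0.36 ± 0.09 with a peak at ZT 16.03 ± 0.91 h (SE; adjusted p = 0.0194 in limma). Kcng4 had an amplitude of 0.28 ± 0.07 and a peak at ZT 13.0 ± 1.00 h, and Kcne1l one of 0.27 ± 0.07 and a peak at ZT 13.5 ± 1.04 h (SE). The fitted peaks of these 3 genes fell in the first hours of darkness, before that of Kcnj14. All 3 calls were kept without the 2 libraries, with amplitudes of 0.32, 0.27 and 0.26. Without the 5 low aged libraries as well, Kcna5 (0.27, adjusted p = 0.0622 in limma) and Kcng4 (0.19, adjusted p = 0.109 in limma) were not called in aged retinas.

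Without the 2 libraries, 7 genes were rhythmic in aged retinas (12.5% against 27.3% of all genes) and 10 in young retinas (17.9% against 34.0%). The 5 genes rhythmic in both ages (8.93% against 19.4%) were then Kcnj14, Kcnn1, Kcna5, Kcnh6 and Kcnk3. Kcna5 had a log2 amplitude of 0.23 ± 0.04 in young retinas with a peak at ZT 16.2 ± 0.77 h (SE; adjusted p = 0.00118 in limma). Kcnh6 (ERG2) peaked in the light, at ZT 7.97 ± 0.97 h in aged and 6.14 ± 0.89 h in young retinas, with log2 amplitudes of 0.26 ± 0.07 and 0.19 ± 0.04 (SE). Kcnh2 and Kcnt1 (Slack, a sodium-activated channel) were called in young retinas in this fit, with peaks at ZT 9.38 and ZT 8.80.

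A rhythm called in one age and not in the other does not show a difference between ages, which was tested on its own. That test called 0 of the 56 genes and 1 of all 15321 genes (0.00653%) in limma, and at an unadjusted p under 0.05 it passed 2 genes, against 7.75% of all genes. The smallest p-values were 0.0456 for Kcng4, 0.0472 for Kcnk3, 0.104 for Kcnk1 and 0.148 for Kcng2 (adjusted p = 0.606 each in limma).

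For Kcnn1, the gene rhythmic in both ages with a promoter in the RefSeq table (GRCm38.p6, an earlier build than the files'), the 300 bases around 1 start at chr8:70863209-70863508, minus strand, are shown because its level followed the day in both ages. Motifs searched on both strands would be in capitals, and there are none. Another listed promoter of Kcnn1, at chr8:70856959-70857258, also held none and is not shown. Which promoter is used in the retina was not tested.
Kcnn1 promoter: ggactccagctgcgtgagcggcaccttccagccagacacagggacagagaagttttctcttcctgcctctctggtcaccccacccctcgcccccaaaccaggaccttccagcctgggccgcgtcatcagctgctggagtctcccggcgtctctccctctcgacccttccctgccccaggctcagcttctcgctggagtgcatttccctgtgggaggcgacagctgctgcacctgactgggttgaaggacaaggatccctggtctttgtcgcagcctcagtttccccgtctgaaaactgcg
The motifs were the E-box CACGTG, the D-box TTATGNAA, the nuclear receptor element AGGTCA, the cAMP response element TGACGTCA, and TAATCC, which the photoreceptor factor CRX binds. They lie in 7.15%, 3.38%, 16.3%, 1.79% and 7.06% of the 32851 promoters of this length, in that order. Of the 56 genes, 39 had 57 promoters in the table, of which 3, 0, 3, 0 and 2 held them. The 2 with TAATCC belong to Kcng4 and Kcnj9, and those with CACGTG to Kcnab1 and Kcnj2.

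Among the 36 genes with a Kcn symbol below the minimum, 1 was called for age when all 37323 genes above 0 were tested. This was Kcnj8 (Kir6.1), the pore subunit of the ATP-sensitive channel of pericytes and vascular smooth muscle. Its level was 0, 0.111 and 0.287 RPKM as the lowest, median and highest of the aged libraries, against 0, 0.227 and 0.478 RPKM in young. That corresponds to a median of 10 reads in aged and 23 reads in young libraries, so counting error is large in any one library. The group mean was lower in aged than in young retinas at all 6 times, with no overlap at ZT2 and ZT6 and overlap of single libraries at the other times.

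The log2 difference of Kcnj8 was -0.30 ± 0.06 (SE; adjusted p = 0.00276 in limma), and the pseudocount of 0.5, above its level, makes this an understatement of the fold. In that fit 1.63% of genes were called in either direction, and 0.643% lower in aged retinas. Without the 2 libraries it was -0.32 (adjusted p = 0.000208 in limma). Kcnj8 was 0 in young ZT10 replicate 4, a young library. Its partner Abcc9 (SUR2) had 0.0691 ± 0.0308 RPKM in aged and 0.112 ± 0.0599 RPKM in young retinas. Of 6 tested vessel and pericyte markers, 0 were called by limma in either fit. The 9 listed markers summed to 5.75 to 19.3 RPKM in aged and 1.24 to 19.1 RPKM in young retinas. Without the 2 libraries the sums were 5.75 to 19.3 RPKM (median 12.5) in aged and 7.39 to 19.1 RPKM (median 12.9) in young retinas. In the low aged libraries named above, in order of time, they were 7.94, 6.94, 9.13, 7.79 and 5.75 RPKM. Kcnj8 stood there at 0.0221, 0.0514, 0.0226, 0.0421 and 0.0417 RPKM. The part of vessel content in the Kcnj8 difference was not tested. Rgs5, a pericyte marker, had 3.06 ± 0.775 RPKM in aged and 3.38 ± 1.09 RPKM in young retinas.

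**Figure D5:**
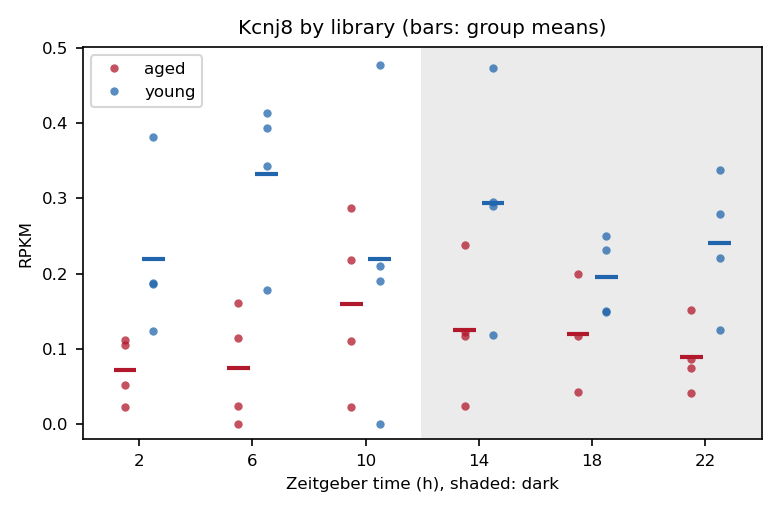
RPKM of Kcnj8 by Zeitgeber time in hours, with points for libraries and bars for group means, aged left of young at each time and the dark phase shaded. The aged mean lies under the young mean at all 6 times, with no overlap at ZT2 and ZT6.

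Kcnj13 (Kir7.1), the inward rectifier of the RPE, had 0.430 ± 0.360 RPKM in aged and 0.277 ± 0.2305 RPKM in young retinas, with an adjusted p of 0.294 in limma. Its group means ranged over the day between 0.101 RPKM at ZT10 and 0.736 RPKM at ZT14 in aged retinas, and between 0.0961 RPKM at ZT2 and 0.539 RPKM at ZT18 in young retinas. It was the only gene of the 36 called rhythmic, in aged retinas, with a log2 amplitude of 0.48 ± 0.12 (SE; adjusted p = 0.0458 in limma) and a peak at ZT 18.1, and 0 were in young retinas, where Kcnj13 had 0.27 ± 0.10 (SE; adjusted p = 0.243 in limma). In that fit of every gene above 0, 4.98% were rhythmic in aged and 7.2% in young retinas. Of 11 tested RPE markers, 6 were rhythmic in aged and 7 in young retinas in the fit of 15321 genes, where 14.4% and 19.7% of all genes were. The 12 RPE markers, a list without Kcnj13, summed to 16.3 to 204 RPKM in aged and 11.9 to 113 RPKM in young retinas, with 1 marker of the list at 0 in some library in either age. Whether pigment epithelium carried over at dissection had a part in the Kcnj13 values was not tested.

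Of 20 proteins that bind or anchor potassium channels, 17 were tested and 0 were called for age by limma in the fit of all libraries, and Abcc8 was the only one called without the 2 libraries, lower in aged retinas. All tested genes were called lower at a share of 1.83% with all libraries and 9.29% without the 2. Dlg1 and Dlg4, scaffold proteins that cluster Kv channels, were rhythmic in both ages, 2 of 17, where 7.56% of all genes were. Dlg4 (PSD-95) had a log2 amplitude of 0.36 in aged and 0.20 in young retinas and peaked at ZT 20.6 and 21.8.

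Of 13 pumps and transporters that move potassium, 0 were called for age by limma with all libraries and 2, both lower in aged retinas, without the 2 libraries, where 9.29% of all genes were called lower. These were the potassium-chloride cotransporter Slc12a7 and the sodium, calcium and potassium exchanger Slc24a4, at log2 differences of -0.21 and -0.36. The pump subunit Atp1b2 was rhythmic in both ages, 1 of 13, where 7.56% of all genes were. Its log2 amplitudes were 0.26 in aged and 0.27 in young retinas, with peaks at ZT 20.5 and 20.6.

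Of 13 other cation channels of retinal neurons, 0 were called for age in limma with all libraries. Without the 2 libraries Hcn2 was called higher and Hcn3, Hcn4, Cngb3 and Trpm1 lower in aged retinas, 1 and 4 of 13, where 7.24% and 9.29% of all genes were called higher and lower. Cacna2d4 and Cnga3, subunits of photoreceptor channels, were rhythmic in both ages, 2 of 13, where 7.56% of all genes were.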

How the data were processed

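The authors deposited 1 table of RPKM values per gene and library for retinal poly(A)-selected RNA-seq; HISAT2 2.2.1, Subread 2.0.6, FastQC 0.23.4 and the GRCm39 build are listed in the submitters' processing notes, and strand is not given in the sources used here, so reads of a gene and of an overlapping antisense transcript cannot be told apart. Columns were matched to the 47 samples by title; 1 column of the table has no sample here and was not used. The protocol in the labels gives 4 mice per age and time but ties no library to a mouse; each library was taken as 1 animal. Gene symbols came from GENCODE M21 (GRCm38) for 51933 of 57180 IDs, and genes with a Kcn symbol or of the other lists that are not reported here were left out of the counts of those lists but kept in the fits. Library totals and reads were recovered from the RPKM steps: of 37323 genes above 0, 32779 gave whole reads (within 0.01) with the annotated exon length, and for the others the length was the smallest that made them whole, so their whole reads are no check. Tests ran in limma 3.58.1 (R 4.3.3, eBayes with trend) on log2(RPKM + 0.5) over 15321 genes at 0.5 RPKM or more in 12 or more libraries, with Benjamini-Hochberg adjustment and calls at an adjusted p under 0.05; a fold is therefore understated for low genes. Age was fitted with time as a factor, rhythm by 24 h cosine and sine terms in each age, and differences by interaction terms. The alternatives were other pseudocounts, filters, scalings, weights and covariates, limma voom, time as a factor, and leaving out libraries. Scripts were checked on simulated data. The genes and lists were chosen with earlier results of these data known; genes were named if called for age, among the 10 highest, rhythmic, at the smallest p-values, nearest the minimum, or known from the retina, and the 6 genes kept in 1 library and those called without 2 libraries were named after their values were seen. Coding bases of the channel signature are shown, since no protein sequence was used here.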

Additional observations from a re-analysis of the deposited data

Results flagged for a closer look

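Among the 10 genes with the highest level, 110 groups of 4 libraries were examined for a library whose gap to the nearest of the others, over the group's range, exceeded Dixon's 95% critical value, and 7 were found; chance alone gives about 1 in 20 groups. Of these, 4 were in 1 library, young ZT10 replicate 4. Kcna5 stood there at 1.49 RPKM, against 22.5 to 26.1 RPKM in the other 3. Kcnj9 stood at 0.853 RPKM, against 17.8 to 20.1 RPKM, Kcnh2 at 1.18 RPKM, against 17.7 to 19.4 RPKM, and Kcnc1 at 0.348 RPKM, against 13.0 to 15.5 RPKM.

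The other 3 were in 3 libraries. Kcnj9 was low in aged ZT10 replicate 3 at 10.6 RPKM, against 18.2 to 19.5 RPKM. Kcnv2 was low in young ZT22 replicate 1 at 130 RPKM, against 139.8 to 141 RPKM, and Kcnab2 in young ZT22 replicate 4 at 80.6 RPKM, against 86.3 to 86.9 RPKM.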

How the results depend on the processing

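The count of genes called higher in aged retinas was 0 with all libraries. It was 1 with median-ratio scaling (2.49% of all genes), quantile normalization (2.94% of all genes), array weights or without the 2 libraries that stand apart. With ganglion and amacrine cell marker levels as covariates, an alternative chosen after seeing the data, it was 2. The count called lower, also 0, was 3 with array weights, 9 with these covariates and 7 without the 2 libraries (7.65%, 4.93% and 7.24% of all genes were called higher and 8%, 5.01% and 9.29% lower in these 3 fits), and 2 when 5 low aged libraries were left out as well (7 libraries in all), also chosen after seeing the data; leaving out 1 library at a time gave 0 to 1 higher (1 without aged ZT6 replicate 3) and 0 to 8 lower (8 without young ZT10 replicate 4). Array weights called 1 gene higher and 36 lower at ZT2 (1.79% and 64.3%, against 2.87% and 18.9% of all genes) and 1 higher at ZT6 (1.16% of all genes). They called 4 higher and 1 lower at ZT18 (13.4% and 7.19% of all genes), and 5 for the interaction (10.4% of all genes). The ganglion and amacrine marker covariates called 3 lower at ZT6 (7.71% of all genes). The 2 libraries left out gave 1 higher at ZT18 (0.627% of all genes), and the 7 left out 1 higher at ZT6 (0.79% of all genes). Leaving out 1 library gave 0 to 1 lower at ZT6. Rhythmic genes, 5 in aged, 5 in young and 2 in both, were 12, 20 and 9 with array weights (39.3%, 46.1% and 27.6% of all genes). They were 0, 2 and 0 with pigment epithelium and lens marker levels as covariates (2.1%, 12.1% and 1.43% of all genes). With quantile normalization they were 3, 3 and 1 (10.7%, 16.9% and 5.88% of all genes). With time as a factor they were 2, 2 and 1 (6.55% of all genes in aged and 13.7% in young retinas). Without a filter there were 1 in aged and 1 in both (4.98% and 2.45% of all genes), and with median-ratio scaling 4 in both (6.49% of all genes). Ganglion and amacrine covariates gave 10 in young (37.9% of all genes). Without the 2 libraries there were 10 in young and 5 in both (34% and 19.4% of all genes), and without the 7 there were 4 in both (15.9% of all genes). Leaving out 1 library gave 3 to 7 in aged, 3 to 10 in young and 1 to 3 in both. The shares of all genes called with 1 library left out, for age or rhythm, were not counted. Aged fell to 3 without aged ZT10 replicate 1, 2 or 4, ZT14 replicate 3 or 4, or ZT22 replicate 3 or 4; young was 3 without young ZT6 replicate 4 and 10 without young ZT10 replicate 4. Both fell to 1 without aged ZT2 replicate 2 or 3, any aged ZT10 or ZT14 library, ZT18 replicate 1 or 2, or ZT22 replicate 1, 3 or 4. The replicate block gave 7 in aged retinas (15.6% of all genes) and changed no call for age. Of 253 same-number pairs, 90 had a correlation over 0.1, and 17 of 47 libraries correlated best with their own number, so the numbers were not taken as pairs. Some log2 age differences, none of them called, changed sign: Kcnv2 to -0.0191 with array weights and -0.0588 without the 7 libraries, Kcnab3 to 0.1074 without the 7, Kcnab2 to 0.0016 with median-ratio scaling, 0.0386 with array weights 0.0076 without the 2 libraries and 0.0585 without the 7 (-0.0242 to 0.0022 over single libraries left out), and Kcnk1 to -0.0030 with a pseudocount of 1, -0.0037 with the replicate block, -0.0311 with array weights, -0.13 with pigment epithelium and lens covariates and -0.11 without the 2 libraries (-0.1417 to 0.0468 over single libraries left out). The causes of these changes were not tested. Depth limits the lowest genes most: Kcnj8 had a median of 10 reads in aged and 23 reads in young libraries.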

Other observations

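Below the minimum, Kcnj16 (Kir5.1) had 0.106 RPKM in aged and 0.0554 RPKM in young retinas on average, with an adjusted p of 0.115 in limma over all genes above 0. Kcnt2 (Slick, a sodium-activated channel) had 0.0444 RPKM in aged and 0.0624 RPKM in young retinas, and was called lower without the 2 libraries that stand apart (adjusted p = 0.0237 in limma, an alternative chosen after seeing the data) but not with them (adjusted p = 0.182 in limma). The antisense transcripts annotated beside Kcnd3 and Kcnab3 averaged 0.176 and 0.0629 RPKM over all libraries.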
